A study of Mus musculus with 12 samples.

Results

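Lyz2, Cd68, Laptm5, Ctss, Ctsb, Ctsz, Ctsc, Ctsd and Lgmn encode a lysozyme, lysosomal membrane proteins and lysosomal proteases of phagocytes. They were taken by gene symbol from the deposited expression tables of laser-burned mouse retina, and are 9 of the 54367 genes listed. All 9 passed the filter on low values (mean signal of 1 or more in a day's 6 libraries) on both days.

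The retinas came from wildtype C57BL/6 mice aged 8 to 12 weeks. Lasered retinas were right eyes burned with a 532 nm laser (spot size 75 µm, duration 0.1 s) and taken on day 3 or day 7 after the burn, and control retinas were left eyes that received no laser, taken on the same days. Each of the 4 groups has 3 polyA RNA libraries, 12 in all, and the series title names angiogenesis in the inflammatory stage as the subject. The control eye had a lasered partner eye in the same mouse, so no group comes from animals without a burn. The labels do not say that equal replicate numbers mark 1 mouse, and p-values therefore measure the spread between these retina samples.

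Lysosomes are acidic organelles in which hydrolases degrade material that a cell has engulfed or recycled. Phagocytes of the retina include microglia, which clear debris, and the retinal pigment epithelium beneath the photoreceptors, which takes up shed outer segments. Blood-borne monocytes and neutrophils can add further lysosomal proteins to an injured tissue. Cathepsins B, D and Z and legumain are made by many cell types, whereas lysozyme, CD68, LAPTM5 and cathepsin S are characteristic of myeloid cells.

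Lyz2 (ENSMUSG00000069516) encodes the lysozyme of macrophages and neutrophils, which cleaves bacterial cell walls, and lies at chr10:117277331-117282321 on the minus strand of mm10. Cd68 (ENSMUSG00000018774, chr11:69664213-69666153, minus strand) encodes macrosialin, a heavily glycosylated membrane protein of macrophage endosomes and lysosomes. Laptm5 (ENSMUSG00000028581, chr4:130913125-130936141, plus strand) encodes a lysosomal transmembrane protein of blood-derived cells. Ctss (ENSMUSG00000038642, chr3:95526786-95556403, plus strand) encodes cathepsin S, a cysteine protease that processes the invariant chain of class II molecules. Ctsb (ENSMUSG00000021939, chr14:63122462-63145923, plus strand), Ctsz (ENSMUSG00000016256, chr2:174427493-174439039, minus strand) and Ctsc (ENSMUSG00000030560, chr7:88278085-88310888, plus strand) encode further cysteine cathepsins. Cathepsin Z is a carboxypeptidase, and cathepsin C is a dipeptidyl peptidase that activates the granule proteases of neutrophils and cytotoxic lymphocytes. Ctsd (ENSMUSG00000007891, chr7:142375911-142388038, minus strand) encodes an aspartic protease, and Lgmn (ENSMUSG00000021190, chr12:102394084-102439813, minus strand) encodes legumain, an asparaginyl endopeptidase that also processes cathepsins.

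Promoter windows of 300 bases, from 250 before to 50 after the start of the gene, were read from RefSeq on GRCm38.p6, and 8 of 9 genes matched, Ctsb being the other. The windows shown first are those of Lyz2 (chr10:117282223-117282522, minus strand) and of its neighbour and paralog Lyz1 (chr10:117292819-117293118, minus strand), because reads of this pair can be mistaken for each other. The capitals mark the longest stretch that both windows share, 86 bases.
Lyz2: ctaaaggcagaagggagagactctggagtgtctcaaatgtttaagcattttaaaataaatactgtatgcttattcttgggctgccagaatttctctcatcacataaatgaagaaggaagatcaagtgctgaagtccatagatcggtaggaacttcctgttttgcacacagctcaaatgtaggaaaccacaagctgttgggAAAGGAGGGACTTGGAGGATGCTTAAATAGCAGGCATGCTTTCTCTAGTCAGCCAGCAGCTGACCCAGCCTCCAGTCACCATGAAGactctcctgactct
Lyz1: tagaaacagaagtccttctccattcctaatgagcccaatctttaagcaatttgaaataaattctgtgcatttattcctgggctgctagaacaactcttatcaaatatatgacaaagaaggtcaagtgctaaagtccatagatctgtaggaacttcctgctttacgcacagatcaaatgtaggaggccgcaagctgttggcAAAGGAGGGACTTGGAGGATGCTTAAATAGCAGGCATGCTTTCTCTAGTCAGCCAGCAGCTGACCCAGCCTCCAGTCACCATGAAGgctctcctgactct
The windows are identical at 249 of 302 aligned positions (82.5%), and the transcripts at 1211 of 1317 (92.0%).

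The next windows belong to Cd68 (chr11:69666121-69666420, minus strand), Laptm5 (chr4:130913066-130913365, plus strand) and Ctss (chr3:95526536-95526835, plus strand), which with Lyz2 had the largest log2 differences on day 7, and to Ctsd (chr7:142387778-142388077, minus strand), whose groups overlapped on that day. Capitals mark 3 motifs searched on both strands: GAGGAA, the core of PU.1-type ETS sites in myeloid genes, which reads TTCCTC on the other strand; CACGTG, known as the E-box; and TGAGTCA, the AP-1 site.
Cd68: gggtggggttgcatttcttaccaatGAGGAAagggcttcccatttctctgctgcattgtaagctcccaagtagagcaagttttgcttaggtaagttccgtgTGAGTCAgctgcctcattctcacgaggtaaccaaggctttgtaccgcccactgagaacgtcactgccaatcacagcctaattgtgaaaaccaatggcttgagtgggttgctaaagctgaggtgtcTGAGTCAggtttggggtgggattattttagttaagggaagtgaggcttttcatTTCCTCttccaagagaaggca
Laptm5: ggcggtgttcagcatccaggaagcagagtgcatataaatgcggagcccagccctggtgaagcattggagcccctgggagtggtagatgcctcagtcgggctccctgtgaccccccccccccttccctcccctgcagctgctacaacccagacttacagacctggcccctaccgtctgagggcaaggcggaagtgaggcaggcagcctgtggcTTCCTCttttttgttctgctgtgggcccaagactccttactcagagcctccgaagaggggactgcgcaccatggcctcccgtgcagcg
Ctss: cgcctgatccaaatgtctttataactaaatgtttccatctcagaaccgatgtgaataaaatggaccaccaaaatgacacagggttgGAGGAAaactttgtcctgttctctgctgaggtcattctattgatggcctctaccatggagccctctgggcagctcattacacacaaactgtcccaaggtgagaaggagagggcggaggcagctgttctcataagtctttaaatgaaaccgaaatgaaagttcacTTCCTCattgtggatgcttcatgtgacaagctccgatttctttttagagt
Ctsd: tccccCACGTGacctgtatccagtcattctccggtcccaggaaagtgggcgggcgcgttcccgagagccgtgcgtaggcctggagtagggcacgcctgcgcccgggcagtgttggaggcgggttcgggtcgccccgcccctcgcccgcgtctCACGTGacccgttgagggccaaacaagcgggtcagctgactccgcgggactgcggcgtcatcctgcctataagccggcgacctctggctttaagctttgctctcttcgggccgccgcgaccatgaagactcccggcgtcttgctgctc
The ETS core was present in 4 of 8 genes (Cd68, Ctss, Ctsc and Laptm5), against 28.1% of 32544 promoter windows. The E-box was present in 2 (Ctsd and Lgmn), against 7.17% of all windows, and the AP-1 site in 1 (Cd68), against 5.19%. Lgmn has 2 windows, and its E-box lies only in the second (chr12:102439043-102439342, minus strand). The 8 genes thus have 9 windows, and a gene was counted if any window matched, whereas the shares are per window. No matches overlapped in the windows shown. The motifs were chosen after the promoter sequences had been seen, and a match describes the letters of a window and is not a binding site.

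Each deposited value is a signal per exon length, and genes are ordered by it within a day only to describe that table. The tables of the 2 days were made separately. Between them the control mean of Lamp1 went from 17.0 to 273 and that of Lamp2 from 17.2 to 3.31. An order of genes by signal need therefore not be an order by abundance. The libraries hold between 8728105 and 11865890 reads for day 3, and between 22672318 and 29470212 for day 7, over the 53681 genes whose exon length is known. For a gene with 1 kb of exons, 3 reads amount to 0.446 or more and at most 0.606 in the day 3 libraries, and to 0.292 or more and at most 0.380 in those of day 7, which covers counting error only. Rod and cone markers were present in every library, as a retina label requires. Summed rod markers were at 9357, 23033 and 17493 in lasered replicates 1, 2 and 3 on day 3, against 24589, 25983 and 21009 in controls, and summed cone markers at 408, 1794 and 1797 against 2651, 2582 and 2713. In whole-retina RNA, fewer cells of a type and less RNA per cell cannot be told apart.

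The genes were ordered by level within each group. On day 3 lasered means of Ctsd (467), Ctsb (447), Lyz2 (252) and Lgmn (239) came first with overlapping ranges, and Lyz2 spanned 30.7 to 661. On day 7 Lyz2, at 88.4 ± 17.7 (SD, n = 3), overlapped with Ctss at 79.3 ± 29.5, and this pair stood below Ctsz at 147 ± 7.39 and above Cd68 at 19.6 ± 1.20 and Laptm5 at 19.1 ± 0.953.

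In control retinas the proteases of many cell types were the abundant genes, and Lyz2 was at the low end. On day 3 the control means ran from Ctsb at 307 ± 7.04 (SD, n = 3) through Ctsd at 268 ± 9.88, Lgmn at 148 ± 22.6 and Ctsz at 68.8 ± 2.51 to Ctss at 30.8 ± 1.86, and no neighbours in this order overlapped. Below them, Ctsc, Laptm5, Cd68 and Lyz2 had means of 7.61, 5.85, 5.21 and 5.14, with ranges that overlapped from each gene to the next. On day 7 Ctsd, Ctsb and Lgmn overlapped at the top of the control order, followed without overlap by Ctsz at 99.4 ± 12.8 and Ctss at 19.6 ± 5.76. Laptm5, Cd68, Lyz2 and Ctsc again formed the overlapping low end, with means between 3.48 and 6.56.

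Summed over the 9 genes, the level on day 3 was 2840, 1200 and 1346 in lasered retinas, against 810, 893 and 836 in controls. This was 0.287%, 0.125% and 0.135% of all signal in lasered libraries and 0.0805%, 0.0854% and 0.0834% in control libraries. On day 7 the sum was 1820, 1628 and 1814 in lasered retinas, against 1350, 1172 and 1469 in controls.

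**Figure D1:**
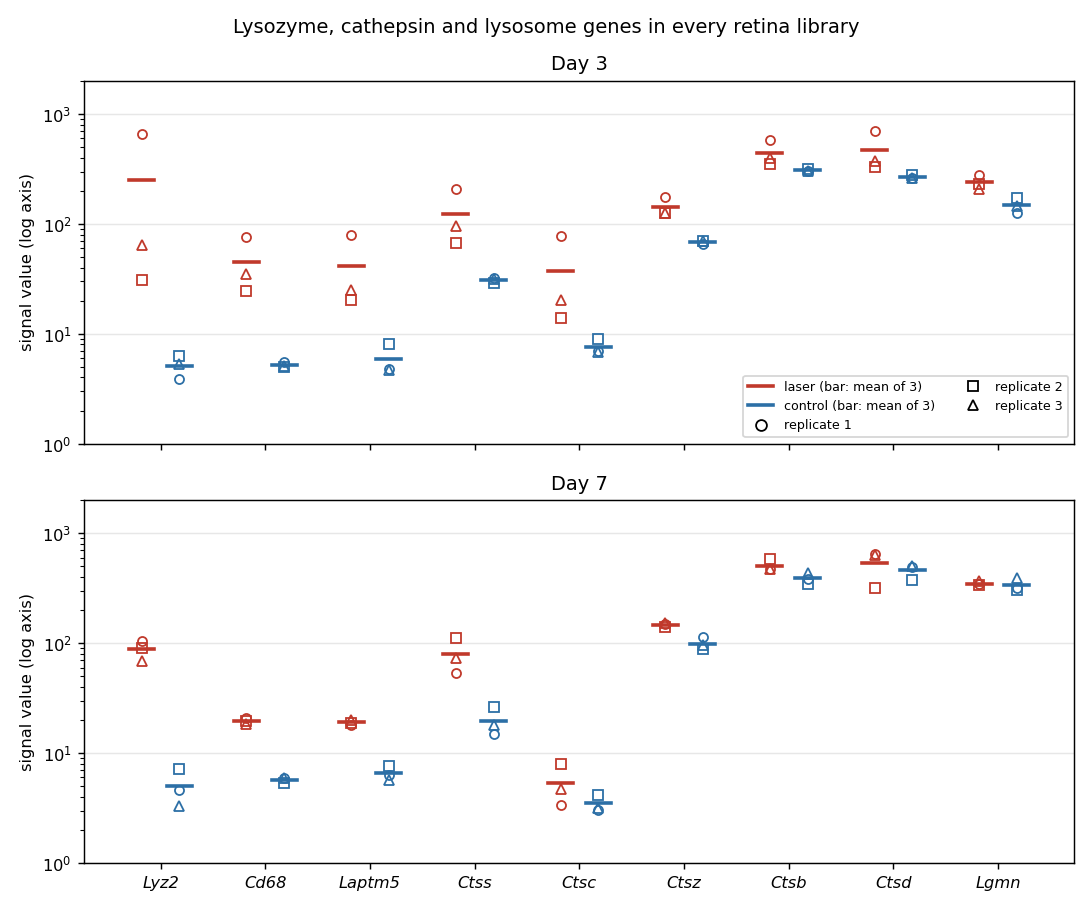
Signal value (log axis) of each gene in every library on day 3 (top) and day 7 (bottom); lasered retinas are red and drawn left of the blue control retinas, marker shapes give the replicate number and bars the mean of 3. On day 3 the lasered symbols of all 9 genes lie above the control symbols and are spread over up to 30.7 to 661 for Lyz2, and on day 7 those of Ctsc, Ctsd and Lgmn overlap with the controls.

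Lasered retinas were first set against control retinas of day 3. All 9 were higher in every lasered library than in any control, by 49.0-fold in the ratio of means for Lyz2, 8.72-fold for Cd68, 7.08-fold for Laptm5, 4.93-fold for Ctsc, 4.02-fold for Ctss and 1.45-fold to 2.06-fold for Ctsz, Ctsd, Lgmn and Ctsb. None of the 9 passed the threshold of an adjusted p under 0.05 over the 16786 genes tested (limma, Benjamini-Hochberg), while all 9 had an unadjusted p under 0.05 and voom on recovered reads also called 0 of 9 (0.0795% of all genes rose). Over all genes tested, 0.143% rose by the adjusted p, 20.7% were higher at an unadjusted p under 0.05, and 27.7% were higher without overlap between the groups. The median log2 difference of the 9 genes was 1.78, against 0.16 for all genes.

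Lyz2 stood at 661, 30.7 and 64.1 in lasered retinas 1, 2 and 3, against 3.86, 6.25 and 5.29 in controls. The first lasered retina held more than the other lasered retinas together, and even the lowest lasered value lay above all controls. On the log2 scale the difference was 4.20 (SE 1.00, limma adjusted p = 0.0950), behind 4327, 285 and 457 reads in lasered libraries and 33, 53 and 35 in control libraries. Lyz1 was near the limit of detection, at 1.92, 0.117 and 0.838 in lasered retinas and 0.240, 0 and 0 in controls. Few reads were thus assigned to the paralog, and no source used here says how reads that match both genes were counted.

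Among the lysosomal membrane proteins, Cd68 stood at 76.8, 24.8 and 34.7 in lasered retinas, against 5.56, 4.97 and 5.10 in controls. Its controls lay within a narrow band, and its log2 difference of 2.74 (SE 0.37) had the smallest p of the 9 genes (limma adjusted p = 0.0710). Laptm5 stood at 79.0, 20.4 and 24.9 in lasered retinas, against 4.80, 8.09 and 4.66 in controls. The groups were separate, with a log2 difference of 2.40 (SE 0.49, limma adjusted p = 0.0915).

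Of the cysteine cathepsins, Ctss stood at 208, 66.7 and 96.5 in lasered retinas, against 32.4, 28.8 and 31.3 in controls, a log2 difference of 1.81 (SE 0.38, limma adjusted p = 0.0915). Ctsc stood at 78.3, 14.0 and 20.2 in lasered retinas, against 7.02, 8.96 and 6.84 in controls, a log2 difference of 1.78 (SE 0.56, limma adjusted p = 0.135). In both genes lasered replicate 1 was far above the other lasered retinas, which were closer to controls. Ctsz stood at 175, 125 and 125 in lasered retinas, against 65.9, 70.5 and 69.8 in controls, with a log2 difference of 1.02 (SE 0.16, limma adjusted p = 0.0883). Ctsb stood at 584, 355 and 402 in lasered retinas, against 302, 315 and 305 in controls, a log2 difference of 0.51 (SE 0.19, limma adjusted p = 0.181). For these genes of higher signal the groups were separate too. The gap between the lowest lasered and the highest control value of Ctsb was, however, small next to the spread of the lasered retinas.

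Ctsd, the aspartic protease, stood at 697, 332 and 371 in lasered retinas, against 263, 280 and 262 in controls, a log2 difference of 0.72 (SE 0.27, limma adjusted p = 0.178). Lgmn stood at 280, 232 and 206 in lasered retinas, against 126, 171 and 146 in controls, a log2 difference of 0.69 (SE 0.17, limma adjusted p = 0.0977). Both had separate groups and again their highest value in lasered replicate 1. In absolute signal the order of the genes was another one: lasered minus control means came to 247 for Lyz2, 199 for Ctsd, 140 for Ctsb, 92.9 for Ctss, 91.9 for Lgmn, 73.2 for Ctsz, 40.2 for Cd68, 35.6 for Laptm5 and 29.9 for Ctsc.

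Lasered replicate 1 was the highest of the lasered retinas in 9 of 9 genes on day 3, and lasered replicate 2 the lowest in 8. Against the control mean, replicates 1, 2 and 3 reached 129-fold, 5.98-fold and 12.5-fold for Lyz2 and 10.3-fold, 1.84-fold and 2.66-fold for Ctsc. For Lgmn these ratios were 1.90, 1.57 and 1.40, and for Ctsz 2.55, 1.82 and 1.82, so the lasered retinas lay closer together in these proteases. Without lasered replicate 1 the test called 5 of 9 genes (Lyz2, Cd68, Laptm5, Ctss and Ctsz, log2 differences from 0.86 to 2.91), where 1.7% of 16396 genes rose, and without lasered replicate 2 it called 1, Cd68 (0.155% of genes rose). After median-of-ratios rescaling the median of all genes was -0.017 in place of 0.16 and that of the 9 genes 1.58.

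**Figure D2:**
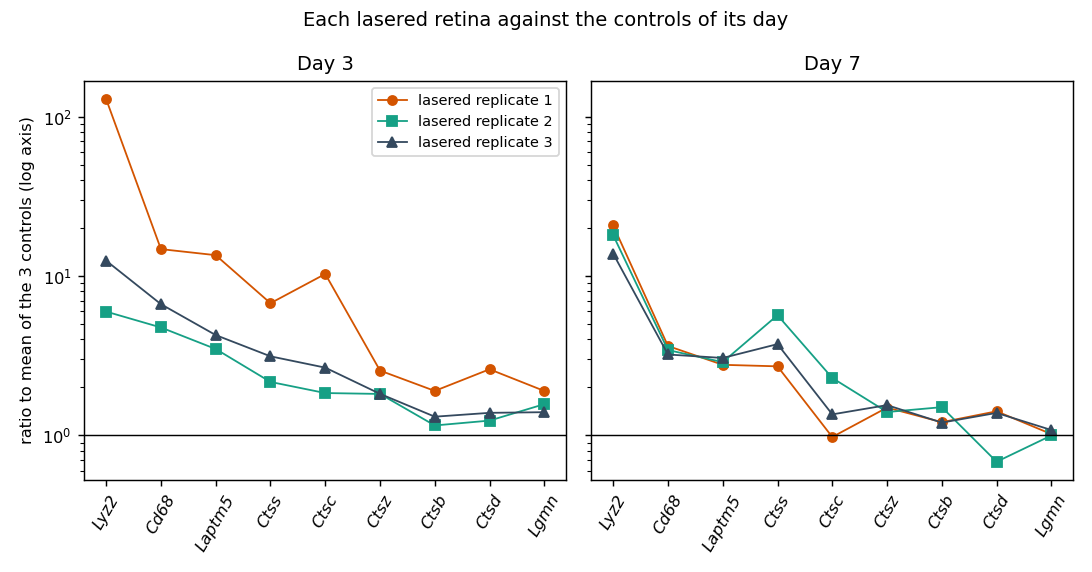
Ratio of each lasered library to the mean of the 3 control libraries of its day (log axis), for day 3 (left) and day 7 (right), with 1 line per lasered replicate. On day 3 replicate 1 lies above the other replicates in all 9 genes, from 129-fold for Lyz2 to 1.90-fold for Lgmn, and on day 7 the 3 lines cross.

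Markers of other cell types were summed per library for day 3. Over all genes tested on that day, 27.7% were higher and 3.82% lower without overlap, and 0.143% rose. Summed microglia markers (15 listed, 13 tested, 10 without overlap, 2 that rose over all genes, Fcrls and C1qb) were at 263, 148 and 168 in lasered retinas and 39.5, 45.9 and 42.6 in controls. Summed markers of monocytes and infiltrating macrophages (11 listed, 8 tested, 6 without overlap, 0 called) were at 223, 5.71 and 10.1 in lasered retinas and 3.03, 3.63 and 4.52 in controls, with Ccr2 listed at 0 in all 3 controls. Summed neutrophil markers (10 listed, 4 tested, 1 without overlap, 0 called) were at 1114, 3.43 and 60.9 in lasered retinas and 3.10, 2.64 and 4.57 in controls, with Ly6g and Mpo listed at 0 in all 3 controls. Most of the neutrophil sum of lasered replicate 1 was S100a9 (524) and S100a8 (476), while Elane and Mpo were listed at 0 in that library. Of the monocyte and macrophage markers, Ccr2, Plac8, F13a1 and Ms4a7 passed the filter only through lasered replicate 1. They stood there at 8.32, 31.8, 11.2 and 5.27, and at 0.679 or less in lasered replicates 2 and 3. Their controls were at or near 0, so the filter chose them by a lasered value. The count of 6 without overlap is therefore no support for a difference in this list. By summed level, lasered replicate 1 was thus the highest in all 3 lists, as it was in the lysosomal genes. In the microglia list C1qb made up 154 of that library's sum. P2ry12 (2.54, 8.48 and 8.04 in lasered retinas), Siglech (0.237, 1.76 and 2.67) and Gpr34 (2.50, 5.50 and 8.19) were instead lowest there among lasered retinas. The other microglia markers tested were highest in lasered replicate 1. Summed rod, cone and pigment epithelium markers were lowest in that library. The last were at 64.9, 245 and 786 in lasered retinas and 405, 633 and 538 in controls. Lymphocyte markers summed to 11.0, 1.11 and 1.35 in lasered retinas and 1.25, 0.670 and 0.858 in controls. Müller glia markers (of 10, 5 higher and 1 lower without overlap, 0 called) summed to 4182, 4247 and 4761 in lasered retinas and 2681, 3238 and 2632 in controls. Within that sum Clu was at 2653, 2102 and 2806 in lasered retinas, against 1043, 1360 and 970 in controls. Glul was the gene that was lower (67.2, 285 and 238 against 317, 318 and 310). The median log2 difference of the Müller glia list was 0.077, against 0.16 for all genes, and 5 of 10 were positive. The part of each cell type in the level of the 9 genes was not tested.

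On day 7, Lyz2, Cd68 and Laptm5 rose in lasered retinas, by 17.5-fold, 3.43-fold and 2.90-fold in the ratio of means, and are 3 of 9 genes past the threshold, where 0.237% of the 15592 genes tested rose. At an unadjusted p under 0.05 the count was 6, against 3.14% of all genes that were higher. The groups did not overlap in the same 6 genes, Lyz2, Cd68, Laptm5, Ctss, Ctsb and Ctsz, all higher in lasered retinas, against 6.78% of all genes. The median log2 difference of the 9 genes was 0.57, against 0.055 for all genes.

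Lyz2 stood at 105, 90.9 and 69.6 in lasered retinas, against 4.63, 7.20 and 3.30 in controls, from 1238, 1038 and 954 reads and from 57, 94 and 34 reads. The lasered retinas lay close together and far above the controls. The log2 difference was 3.92 (SE 0.27, limma adjusted p = 0.00444), and of all genes tested on day 7 Lyz2 had rank 2 by log2 difference and rank 4 by p. Lyz1 was at 0.169, 0.661 and 0.307 in lasered retinas and at 0, 0.385 and 0 in controls, at most 7 reads in any library of that day.

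Cd68 stood at 20.8, 19.6 and 18.4 in lasered retinas, against 5.95, 5.29 and 5.92 in controls, and rose by 1.62 on the log2 scale (SE 0.17, limma adjusted p = 0.0202). Laptm5 stood at 18.2, 18.9 and 20.1 in lasered retinas, against 6.32, 7.63 and 5.73 in controls, and rose by 1.41 (SE 0.18, limma adjusted p = 0.0444). In both membrane proteins all lasered values were within a narrow band and well apart from the controls. Of the 3 calls, those of Cd68 and Laptm5 were lost after quantile normalization (0.199% of all genes rose) and with voom on recovered reads (0.099%), and all 3 in the joint fit of the 12 libraries (0.114%). Without the filter on low values the call of Laptm5 was lost (limma adjusted p = 0.0936, where 0.0434% of all genes rose). Leaving out lasered replicate 1, 2 or 3 gave 1, 2 and 0 calls, and leaving out control replicate 1, 2 or 3 gave 1, 1 and 0, with between 0% and 0.256% of all genes that rose.

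Ctss stood at 53.2, 111 and 73.3 in lasered retinas, against 14.8, 26.0 and 18.0 in controls. The retinas numbered 2 were the highest and those numbered 1 the lowest of each group, and the ratio of lasered to control value within equal numbers was 3.59, 4.28 and 4.07. Its log2 difference, 1.93 (SE 0.31), was not past the threshold (limma adjusted p = 0.104), and with the replicate number as a block it was (limma adjusted p = 0.00654), where 0.334% of all genes rose. It also passed with library weights (limma adjusted p = 0.0188, where 0.673% of all genes rose) and after median-of-ratios rescaling (limma adjusted p = 0.0491, 0.187%). With the replicate block the calls of Lyz2, Cd68 and Laptm5 held as well (limma adjusted p = 0.00226, 0.0155 and 0.0294), giving 4 of 9.

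Ctsz stood at 149, 139 and 154 in lasered retinas, against 114, 88.6 and 96.0 in controls, a log2 difference of 0.57 (SE 0.14, limma adjusted p = 0.411). Ctsb stood at 472, 587 and 469 in lasered retinas, against 386, 348 and 437 in controls, a log2 difference of 0.38 (SE 0.15, limma adjusted p = 1.00). In these cathepsins every lasered value was above every control value without the difference passing the test. Ctsc stood at 3.39, 7.96 and 4.71 in lasered retinas, against 3.04, 4.19 and 3.19 in controls, and its groups overlapped (log2 difference 0.45, SE 0.31, limma adjusted p = 1.00). Ctsd stood at 654, 316 and 639 in lasered retinas, against 497, 380 and 510 in controls (log2 difference 0.15, SE 0.30, limma adjusted p = 1.00). Lgmn stood at 344, 338 and 365 in lasered retinas, against 319, 305 and 390 in controls (log2 difference 0.054, SE 0.14, limma adjusted p = 1.00). For Ctsd the lasered retina numbered 2 was below all controls, and for Lgmn the highest of the 6 values was a control.

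**Figure D3:**
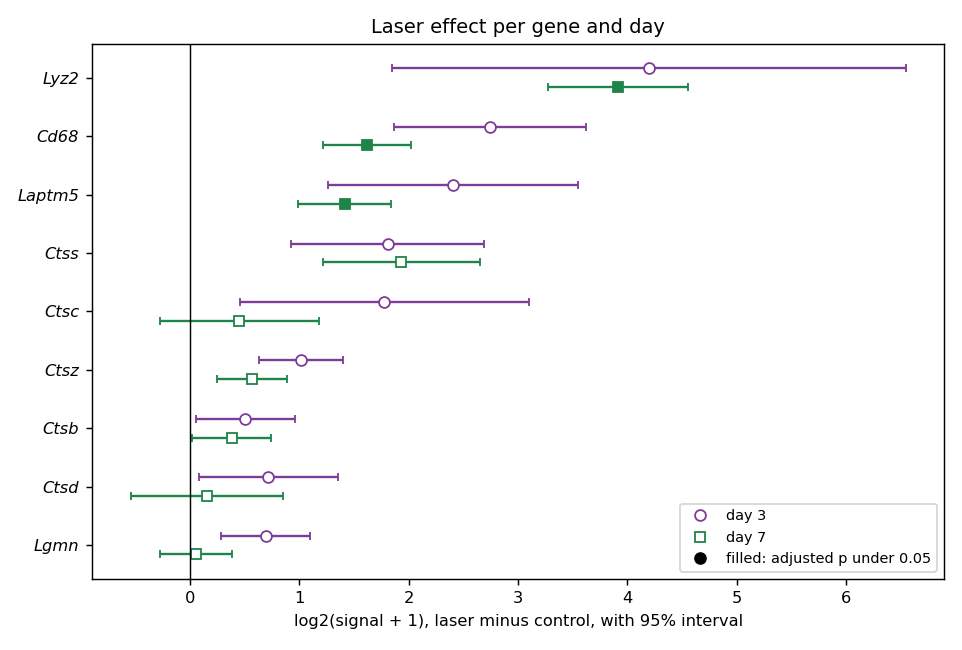
Log2 difference of each gene, lasered minus control, with its 95% interval, on day 3 (circles) and day 7 (squares); filled symbols mark an adjusted p under 0.05 over all genes. Lyz2, Cd68 and Laptm5 on day 7 are filled, and the interval of Lyz2 on day 3 is the widest (1.84 to 6.55).

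Of the 15 microglia markers listed, 11 were tested on day 7, of which 5 rose and 10 were higher without overlap. Tmem119 overlapped. P2ry12, P2ry13, Sall1 and Gpr34 were below the filter, and P2ry12 had a lower mean in lasered retinas (0.147 against 0.248). With the replicate block 6 rose (Trem2 at a limma adjusted p of 0.0385 against 0.0666 without it). Over all genes tested on day 7, 0.237% rose, 0.334% with the replicate block, and 6.78% were higher without overlap. The summed level of microglia markers was 375, 343 and 454 in lasered retinas, against 123, 113 and 101 in controls. Most of the lasered sum was C1qa (125, 96.9 and 149), C1qb (121, 113 and 141) and C1qc (54.8, 48.8 and 68.0). Markers of monocytes and infiltrating macrophages summed to 9.55, 8.89 and 11.2 in lasered retinas and 10.2, 13.4 and 8.54 in controls, with 0 of 1 tested called, and most of that sum was Fn1, a matrix protein. Of the monocyte and macrophage markers, Chil3 and Mrc1 were listed at 0 in all 6 libraries and Ccr2 in all but lasered replicate 3, where it was at 0.0454. Ms4a7, of the same list, was at 0.719, 0.562 and 0.479 in lasered retinas and 0.0507, 0 and 0 in controls, below the filter. Neutrophil markers summed to 1.18, 1.17 and 1.02 in lasered retinas and 0.595, 1.27 and 0.365 in controls, with 0 of 10 past the filter. Müller glia markers (5 of 10 without overlap and higher, 1 that rose, Clu) summed to 12231, 11672 and 13370 in lasered retinas and 8560, 7663 and 8351 in controls, and rod markers (0 of 10 called) to 53503, 42878 and 48428 in lasered retinas and 59939, 55908 and 60624 in controls. Within the Müller glia sum, Apoe was at 4338, 2715 and 4315 in lasered retinas, against 2053, 1507 and 1825 in controls. Clu was at 2244, 2200 and 2386 against 1022, 885 and 1120. The median log2 difference of that list was 0.48, against 0.055 for all genes. The part of each cell type in the day 7 values of the 9 genes was not tested.

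The third comparison asked whether the laser effect differed between the days, as a test of the difference itself over all 12 libraries. Each day has its own table, with more reads per library on day 7, so day cannot be told apart from these. Control means differed widely between the tables, for Lamp1 17.0 on day 3 and 273 on day 7, and for Lamp2 17.2 and 3.31. None of the 9 genes passed over 17611 genes (limma, smallest adjusted p = 0.443; background 0% called), and 2 had an unadjusted p under 0.05, where 9.39% of all genes did. These were Cd68, whose day 7 effect minus day 3 effect was -1.13 on the log2 scale (95% interval -2.07 to -0.18, limma adjusted p = 0.467), and Lgmn, at -0.64 (95% interval -1.15 to -0.13, limma adjusted p = 0.443). The difference was negative in 8 of 9 genes, with a median of -0.57, and the median over all genes was negative too, at -0.11. For Lyz2 it was -0.28 with a 95% interval of -2.78 to 2.23, and for Ctsc -1.33 with an interval of -2.84 to 0.18. The interval of Lyz2 spans a gap of several-fold in either direction. Ctss had the 1 positive value, 0.12 (95% interval -1.03 to 1.28). Without lasered replicate 1 of day 3 the value of Lyz2 was 1.01 in place of -0.28.

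Across the 12 libraries, the genes were compared by their log2 level minus the control mean of the day. Laptm5 followed the mean of the other 8 most closely (Pearson r = 0.988), then Cd68 (0.974), Ctsz (0.953), Lyz2 (0.947), Ctsb (0.919), Ctss (0.898) and Ctsc (0.869), and Lgmn (0.753) and Ctsd (0.685) least. Of 10781 other genes, those most like the mean of the 9 were Pdpn, the membrane glycoprotein podoplanin (r = 0.997), Serpina3n, a protease inhibitor (0.993), Stat3, a transcription factor (0.990), Fcer1g, a signalling chain of Fc receptors (0.990), and Serping1, the C1 inhibitor (0.989). Pdpn, for example, was at 315, 114 and 150 in lasered retinas and 58.5, 66.6 and 65.1 in controls on day 3, and at 231, 259 and 240 against 126, 122 and 132 on day 7. These correlations describe 12 points that share libraries, among them the high lasered replicate 1 of day 3.

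Some of these genes share bases with neighbours on the genome. Exons of Ctsb overlap those of Fdft1 on the other strand, and exons of Ctsz those of Nelfcd on the other strand. The libraries keep the strand, and no source used here says whether the counting used it. Fdft1 had log2 differences of -0.44 on day 3 and -0.71 on day 7, and Nelfcd of -0.014 and 0.11, none past the threshold. Ctsd shares exon bases on its own strand with the predicted gene Gm49369, which is listed at 0 in all 12 libraries.

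The wider lysosome was described by 90 further genes in 6 lists. None of the 78 tested on day 3 and of the 81 tested on day 7 passed by limma, and voom on recovered reads called 0 on either day. At an unadjusted p under 0.05 (limma) the counts were 34 and 13, all of them higher. Of all genes, 20.7% on day 3 and 3.14% on day 7 were higher by that rule. Without overlap and higher were 44 of 78 on day 3 (27.7% of all genes) and 20 of 81 on day 7 (6.78% of all genes), and 0 were lower without overlap. The median log2 difference of the 78 genes on day 3 was 0.44, and 0.26 after median-of-ratios rescaling, which put the median of all genes at -0.017. On day 3 the median log2 difference was 0.64 over 7 other cathepsins, 0.44 over 3 cystatins, 0.46 over 32 other hydrolases, 0.52 over 18 membrane proteins, 0.097 over 16 proton pump genes and 0.25 over 2 transcription factors, against 0.16 for all genes. On day 7 the medians were 0.38 over 7 other cathepsins, 0.093 over 4 cystatins, 0.20 over 34 hydrolases, 0.23 over 18 membrane proteins, 0.068 over 16 proton pump genes and -0.0047 over 2 transcription factors, against 0.055.

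**Figure D4:**
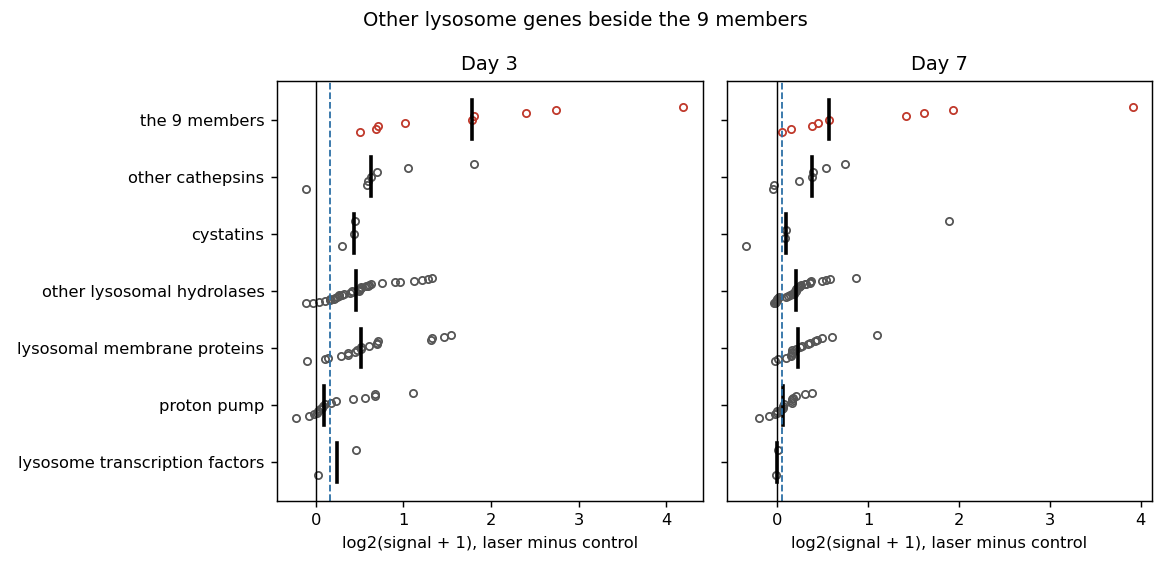
Log2 difference, lasered minus control, of the 9 genes (red) and of the tested genes of 6 further lysosome lists (grey) on day 3 (left) and day 7 (right); black bars are list medians and the dashed blue line is the median of all genes tested, 0.16 and 0.055. The proton pump lies around the dashed line on both days, and most hydrolases and membrane proteins lie to its right.

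Among other cathepsins, Ctsh, an aminopeptidase, stood at 50.9, 29.0 and 46.4 in lasered retinas on day 3, against 8.80, 14.4 and 10.5 in controls (log2 difference 1.80, limma adjusted p = 0.0853). On day 7 it stood at 21.7, 25.8 and 27.4 against 14.8, 13.9 and 14.3 (0.75, limma adjusted p = 0.307). Ctsh thus had separate groups on both days, and on day 3 its lasered replicates 1 and 3 were near each other, with replicate 2 below them. Ctsa, a serine carboxypeptidase, had a log2 difference of 0.60 on day 3 (limma adjusted p = 0.103), and Ctsl, a broad cysteine protease, 0.54 on day 7 (limma adjusted p = 0.861). Ctsg, a protease of neutrophil granules, was listed at 0 in all libraries of both days.

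Cystatins inhibit cysteine cathepsins. Cst7, which encodes cystatin F, an inhibitor of cathepsin C, stood at 4.44, 3.83 and 6.27 in lasered retinas on day 7, against 0.879, 0.204 and 0.640 in controls. The groups were separate, with a log2 difference of 1.90 that missed the threshold (limma adjusted p = 0.0831) and did pass with the replicate block (limma adjusted p = 0.0445). On day 3 Cst7 was below the filter, at 1.28, 0.604 and 1.12 in lasered retinas and 0.148, 0 and 0 in controls. Cst3, which encodes the abundant secreted cystatin C, stood at 1800, 1995 and 1712 in lasered retinas on day 3, against 1174, 1530 and 1357 in controls (0.44, limma adjusted p = 0.138). Cst6 had log2 differences of 0.30 on day 3 and -0.34 on day 7 and overlapped on both days.

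Of the hydrolases, Gusb, the glucuronidase, stood at 7.47, 6.27 and 5.43 in lasered retinas on day 3, against 1.80, 3.09 and 2.36 in controls, without overlap (log2 difference 1.12, limma adjusted p = 0.0883), and Galns, a sulfatase, had a log2 difference of 0.54 on day 7 (limma adjusted p = 0.596).

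Of the membrane proteins, Cd63, a tetraspanin of late endosomes and lysosomes, stood at 365, 118 and 155 in lasered retinas on day 3, against 60.9, 73.7 and 68.5 in controls (1.47, limma adjusted p = 0.106). Laptm4b, a relative of Laptm5, had a log2 difference of 0.61 on day 3 (limma adjusted p = 0.106). Slc11a1, a metal ion transporter of phagosomes, stood at 2.88, 2.52 and 2.43 in lasered retinas on day 7, against 1.07, 0.523 and 0.510 in controls (1.10, limma adjusted p = 0.348), and Slc29a3, a nucleoside transporter, had a log2 difference of 0.50 on that day (limma adjusted p = 1.00). In the proton pump, which acidifies the lysosome, Atp6v1b2 and Atp6v0d1 each had a log2 difference of 0.68 on day 3 (limma adjusted p = 0.109 and 0.114), and Tcirg1 of 0.38 and Atp6v0e of 0.31 on day 7 (limma adjusted p = 1.00 each). The transcription factors of lysosomal genes were low on day 3, Tfe3 at a log2 difference of 0.46 and Mitf at 0.033, and on day 7 Tfe3 (-0.016) and Tfeb (0.0065) differed by less than their standard errors of 0.16 and 0.20.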

How the data were processed

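Poly(A) RNA of 12 retina libraries was sequenced, in 4 groups of 3 taken from the sample titles, with a directional library kit per the labels' protocols. Per the submitters' processing notes STAR 2.7.0, edgeR 3.28.0 and mm10 are listed with no step given; how reads were counted and against which annotation was not given in the sources used here. Values as deposited, 1 table per day, are a signal per gene that the authors named TPM. Column sums ran from 953049 to 1045986, so the unit was read as signal in place of the TPM assumed when the tests were chosen, and the same test was kept. Value times exon length (GENCODE M21, 53681 of 54367 genes with equal start and end) gave whole reads within 0.05 for 99.8% of values under 20 reads per library (chance 10%), after removing a factor that cycles over 6 positions of the table and lies between 0.955 and 1.05.

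Each day was fitted with limma 3.58.1 in R 4.3.3 on log2(value + 1) with a trended prior variance and a 2-sided test, keeping genes whose mean was 1 or more in the day's 6 libraries, with Benjamini-Hochberg adjustment over all genes and a threshold of 0.05. The log2 scale understates differences of low genes. The difference between days was the interaction over 12 libraries. The fitting script was tested on simulated data, whose spread was set and not taken from these retinas. Of 100 genes changed by a log2 of 1, it recovered 49% on day 3 and 90% on day 7. Changes by a log2 of 2 were recovered in 100% on both days. Unchanged genes called numbered 8 on day 3 and 24 on day 7. On day 7 libraries of equal number deviated together (correlations 0.485, 0.559 and 0.128, all over 0.1). Lasered replicate 3, however, correlated better with control replicate 1 (0.205) than with its own number, so this pair is not settled by the data. The fit with the replicate number as a block is given where it changes a call. The design text makes the left eye the control of the right. Alternatives were another pseudocount, no filter, median-of-ratios scaling, the block and leaving out each library, and, within a day, also quantile scaling, library weights, the cyclic factor undone, voom on recovered reads and a joint fit. The joint fit for the further lysosome lists was added after seeing the data.

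The 9 genes and all lists were chosen with earlier results of these data known. Named besides the 9 were, per list and day, the genes past the threshold (at most 4) or otherwise the 2 with the smallest p, the 5 genes most alike, and Lyz1; Gm49369, Fdft1, Nelfcd, Ctsg and the cell type markers were named after their values were seen. A gene that this rule names is not reported here. Promoters came from RefSeq (GRCm38.p6). Biopython 1.88 aligned the Lyz1 and Lyz2 sequences, and matplotlib 3.10.9, NumPy 2.4.6, pandas 2.3.3 and Python 3.11.15 did the remaining work. In all, 0 value columns lacked a sample.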

Additional observations from a re-analysis of the deposited data

How the results depend on the processing

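On day 3 the number of the 9 genes past the threshold (0) was 4 with library weights, where 2.16% of all genes rose, 6 in the joint fit of 12 libraries, where 5.67% rose, and 0 to 5 when single libraries were left out. On day 7 the number (3) was 1 after quantile normalization, 1 with voom, 0 in the joint fit, 2 without the filter (Laptm5 lost), 4 after median-of-ratios rescaling or with library weights (Ctss added) and 0 to 2 without single libraries. Of the further lysosome genes (0 on either day), day 3 gave 4 with library weights and 12 in the joint fit, at those same shares of 2.16% and 5.67%. Without single libraries day 3 gave 0 to 3. These were 3 without lasered replicate 1 (1.7% of all genes rose) and 1 without lasered replicate 2 (0.155%). Day 7 gave 1 with the replicate block (Cst7, where 0.334% of all genes rose), 2 with library weights (0.673%) and 1 in the joint fit (0.114%). For the difference between days 0 of 9 passed with the other pseudocount, without the filter, after median-of-ratios rescaling, with the replicate block or without any single library, the alternatives run for it. The causes were not tested.

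Lgmn on day 7 turned negative after median-of-ratios rescaling (-0.033), with library weights (-0.15) and without control replicate 2 (-0.015; range over left-out libraries -0.015 to 0.16), and Ctsd on day 7 without lasered replicate 1 (-0.028) or 3 (-0.011; range -0.028 to 0.50). The difference between days changed sign for Ctsb after median-of-ratios rescaling (0.0044) and without lasered replicate 1 of day 3 (0.084; range -0.27 to 0.084), for Lyz2 without lasered replicate 1 of day 3 (1.01; range -1.18 to 1.01), and for Ctss without lasered replicate 2 of day 3 (-0.23), lasered replicate 2 of day 7 (-0.15) or control replicate 1 of day 7 (-0.049), with a range of -0.23 to 0.58. All other log2 values of the 9 genes kept their sign under the alternatives run. The summed control level of day 3 was 911 after median-of-ratios rescaling, against 846.

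On day 3 the correlations of equal numbers were weak (0.0413, 0.0162 and 0.0766), although each library correlated best with its own number. Whether equal numbers pair the day 3 samples is thus not settled by the data. With the replicate block on day 3, 0 of 9 passed (smallest adjusted p = 0.150, limma), and the block changed no calls of the 9 genes on day 7 other than that of Ctss. The interval of Lyz2 on day 3 was wide with all libraries (SE 1.00), and its SE was 0.32 without lasered replicate 1. Genes under 3 reads per library have no usable level.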
